A study of Mus musculus with 12 samples.

Results

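Mast cell genes were followed in mouse mammary tumors labelled ShcA-null through 8 genes, Cpa3, Cma1, Mcpt4, Tpsb2, Hdc, Fcer1a, Ms4a2 and Gata2. They were chosen by name, with earlier results of these data known. Their products are proteases of mast cell granules, the enzyme that makes histamine, chains of the IgE receptor and a transcription factor. Every gene probe of the array carrying such a name, current or older, was taken. This gave 11 probes of 41174, and all 11 were among the 30838 probes kept after the filter on dim spots. Cma1, Mcpt4 and Gata2 each had 2 probes, and the other 5 genes had 1. Tpsb2 is listed on the array under its older name Mcpt6. All 8 genes were therefore measured, and none was lost to the filter.

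Mast cells are long-lived immune cells that settle in connective tissue, around vessels and in skin, and that need Kit ligand to survive there. Their granules hold histamine and a set of proteases bound to the proteoglycan serglycin, and the high-affinity IgE receptor on their surface triggers the release of these contents. In mammary tumors mast cells are known mainly from the stroma and the tumor border.

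The series measured RNA of 8 tumors on 12 2-colour Agilent arrays, each carrying the RNA of 1 tumor beside a reference RNA pooled from NIC tumors. NIC tumors arise in mammary epithelium that makes an activated Neu (ErbB2) receptor together with Cre recombinase, and ShcA, encoded by Shc1, is an adaptor between receptor tyrosine kinases and Ras. In this model only epithelial cells that make Cre can delete a floxed gene, so a deletion is aimed at the epithelium and not at mast cells. The labels give no strain, age or treatment, no Shc1 allele, and no number of tumors in the pool. The groups were thus the tumors labelled ShcA-null, numbered 1 to 8, and the pool, both from the NIC model as far as the study is known. On the first array of each tumor the tumor RNA was in the red channel, and tumors 1 to 4 had a second array with swapped dyes. Values are log2 ratios of tumor over pool, so that 1 is a 2-fold higher signal in the tumor. A ratio of bulk RNA cannot tell apart fewer cells of a type and less RNA per cell.

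Some arrays went against their labels, and this touches every mean given here. Over all kept probes, the swapped array labelled tumor 2 correlated best with the first array of tumor 3 (Pearson r = 0.819 across probes, which are not independent) and only weakly with that of tumor 2 (r = 0.137). The swapped array labelled tumor 3 was closest to the first array of tumor 4 (0.399, against 0.127 with its own number) and the swapped array labelled tumor 4 to that of tumor 8 (0.697, against 0.293). The Shc1 probe was at -2.05 on the first array of tumor 3 and at -2.22 on the swapped array labelled tumor 2, and lay between -0.03 and 0.74 on the other arrays, so Shc1 RNA was low in the labelled direction on those arrays alone. Averages over both arrays of a tumor are given as labelled, and single arrays are given beside them. The means of the mast cell probes are repeated without the first array of tumor 3 and the swapped array labelled tumor 2.

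Mast cell genes were uneven among the tumors. All 11 probes had a mean above the pool, where 13676 of all 30796 tested probes did, but only those of Tpsb2, a tryptase, and Hdc, the enzyme that makes histamine, were called higher, by 1.59-fold and 1.82-fold. Limma called 0 lower, and at an unadjusted p under 0.05 the counts were 6 higher and 0 lower. Among all probes tested 15.3% were called at a limma adjusted p under 0.05, 5.19% higher and 10.1% lower, so that 34% of the calls were higher. Centring each array on its median in place of loess turned that share to 63.4%, moved the median of all probes from -0.05 to 0.10, and left both mast cell calls, with 9.05% of all probes higher. The median of the 11 mast cell probes was 0.72. Both calls were lost with other pairings of the arrays: when each swapped array was averaged with the first array it matched best, limma called 0 of the 11, with 5 at an unadjusted p under 0.05, and 2.81% of all probes were called higher. With a dye term and the best-matching pairs as a random block 0 were called, with 1 at an unadjusted p under 0.05, against 2.52% of all probes. Without tumor 3 the counts were 0 and 3, against 2.91%. The pool counts as 1 control sample, so these tests leave out the spread between control tumors. The labels do not say that the tumors came from separate animals. A p-value here thus reflects only the spread over 8 samples, which may be technical. If the swapped array labelled tumor 2 carries RNA of tumor 3, the same RNA enters the means of tumors 2 and 3 (2.10 and 2.21 for Cpa3). The 8 values as labelled are then not independent, for limma and for the sign-flip test alike.

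**Figure D1:**
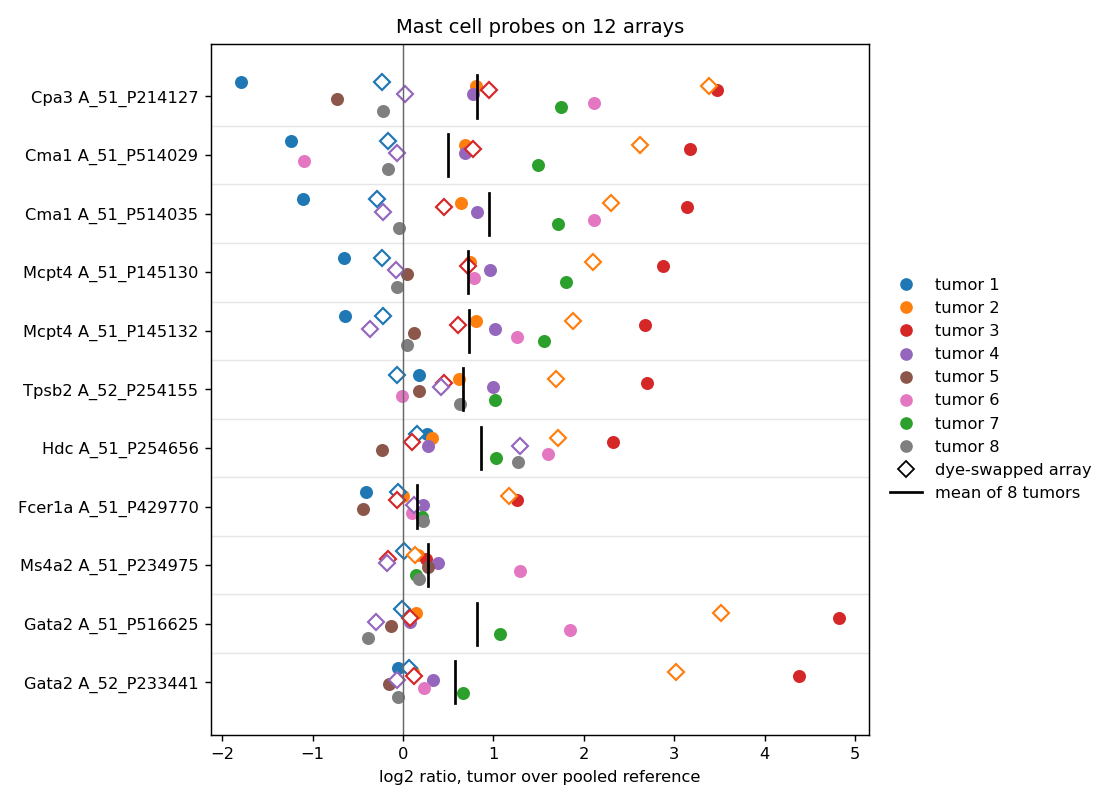
Log2 ratio of tumor over pool (horizontal axis) of the 11 mast cell probes (rows) on each of the 12 arrays. Filled circles are first arrays, open diamonds are dye-swapped arrays in the colour of the labelled tumor, and the black line is the mean of the 8 tumors. The first array of tumor 3 and the swapped array labelled tumor 2 are far to the right for every gene except Ms4a2, and tumors 6 and 7 are above the pool for most of the proteases.

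Carboxypeptidase A3, the product of Cpa3, is a zinc protease of the mast cell granule. Its probe (A_51_P214127, mm7 chr3:19947691-19947750, minus strand) gave log2 ratios of -1.79, 0.81, 3.47, 0.77, -0.73, 2.11, 1.75 and -0.22 for tumors 1 to 8 on their first arrays. Its swapped arrays, in the order of the labels 1 to 4, read -0.23, 3.39, 0.95 and 0.02. Tumors 3, 6 and 7 were clearly above the pool, tumors 1 and 5 were below it, and tumor 8 lay near it. The first array of tumor 3 corresponds to an 11.1-fold higher signal than the pool and that of tumor 1 to a 3.45-fold lower signal. The mean was 0.83 ± 1.37 (SD, n = 8), and the exact two-sided sign-flip test gave p = 0.117 and limma an adjusted p of 0.216. The spread among tumors thus exceeded the mean. Without the first array of tumor 3 and the swapped array labelled tumor 2 the mean of Cpa3 was 0.51.

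Cma1 encodes a mast cell chymase, a protease of the granule, and was read by 2 probes. The probe A_51_P514029 covers chr14:50810007-50811066 of mm7, a span of 1060 bases for a probe of 60, so it bridges an intron; its letters, which fall in the coding sequence, were as follows.
Cma1 A_51_P514029: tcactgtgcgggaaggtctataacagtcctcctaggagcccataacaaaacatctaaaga
The other probe (A_51_P514035) lies at chr14:50808970-50809029. It gave -1.11, 0.64, 3.14, 0.82, 2.11, 1.72 and -0.04 on the first arrays of tumors 1, 2, 3, 4, 6, 7 and 8, and -0.29, 2.30, 0.46 and -0.22 on the swapped arrays. Its order among arrays followed that of Cpa3, with tumors 3, 6 and 7 high and tumor 1 low. Both Cma1 spots of tumor 5 carried an outlier flag and were left out, so n was 7; the flagged values were 0.95 and 0.48.

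The Cma1 probes differed by at most 0.32 on each array they were read on, with the exception of tumor 6. There the probe across the intron stood at -1.09 and the other at 2.11, and the tumor RNA was not well above background at the former. The means were 0.50 ± 1.22 and 0.95 ± 1.08 (SD, n = 7), with exact sign-flip p of 0.312 and 0.0938 and limma adjusted p of 0.425 and 0.108. Neither was called. Without the first array of tumor 3 and the swapped array labelled tumor 2 the means were 0.19 and 0.64.

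Mcpt4, the main chymase of connective tissue mast cells in mice, lies close to Cma1 on chromosome 14. Its probes cover chr14:50927256-50927314 (A_51_P145130) and chr14:50927105-50927164 (A_51_P145132) of mm7, and the accessions listed for the former also name the neighbouring Cma2, so that probe may read both genes. The probe A_51_P145132 gave -0.64, 0.81, 2.68, 1.02, 0.12, 1.26, 1.56 and 0.04 for tumors 1 to 8 on first arrays, and -0.22, 1.88, 0.61 and -0.36 on the swapped arrays. The first array of tumor 3 was again highest and that of tumor 1 lowest, and both probes were within 0.48 of each other on all 12 arrays. Their means were 0.72 ± 0.87 and 0.73 ± 0.81 (SD, n = 8), and the limma adjusted p were 0.107 and 0.0839. The exact sign-flip p were 0.0703 and 0.0547, so neither passed.

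Tpsb2 encodes a tryptase, a trypsin-like protease stored in the same granules as a tetramer with heparin. Its probe (A_52_P254155, chr17:23550604-23550663 of mm7, plus strand) lies in the coding sequence and is shown because it is the protease probe that was called.
Tpsb2 A_52_P254155: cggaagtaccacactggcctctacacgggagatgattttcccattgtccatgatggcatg
It gave 0.18, 0.62, 2.70, 1.00, 0.18, -0.01, 1.02 and 0.63 for tumors 1 to 8 on first arrays and -0.06, 1.69, 0.46 and 0.42 on the swapped arrays. All but tumor 6 were above the pool as tumor means, and the low values of tumor 1 that Cpa3 and the chymases showed were absent here. The mean was 0.67 ± 0.57 (SD, n = 8; exact sign-flip p = 0.0156; limma adjusted p = 0.0423). Without tumor 3 the limma adjusted p was 0.0871, and with a dye term and best-matching arrays as a random block the mean was 0.55 with an adjusted p of 0.245.

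On the array of tumor 6 the protease probes gave different ratios. Cpa3 and the Cma1 probe A_51_P514035 were both at 2.11 there, a 4.33-fold and a 4.31-fold higher signal, whereas Tpsb2 was at -0.01 and the Mcpt4 probes were at 0.79 and 1.26. Probes of 1 gene also differed there, with the other Cma1 probe at -1.09 and the Gata2 probes lying 1.62 apart, and 63.5% of spots had tumor RNA well above background, the lowest share of the 12 arrays. Differences between genes and between probes cannot be told apart on this array. On the first arrays of tumors 3 and 7 no such split was seen among the protease probes, all of which were at least 2-fold above the pool. Probes of some other genes did differ on the first array of tumor 7, as for Cdh5 at -1.75 and 1.07 and Lyn at -2.72 and -0.05.

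Hdc encodes histidine decarboxylase, the enzyme of histamine synthesis. Its probe (A_51_P254656, chr2:126334633-126334692 of mm7, minus strand) gave 0.27, 0.32, 2.32, 0.28, -0.23, 1.60, 1.03 and 1.27 on the first arrays and 0.16, 1.72, 0.10 and 1.30 on the swapped arrays. Tumor 8 was at least 2-fold above the pool here, as was the swapped array labelled tumor 4 that matched it, while Cpa3, Cma1 and Mcpt4 lay within 0.36 of the pool on both. The mean was 0.86 ± 0.60 (SD, n = 8), above the pool in 7 of 8 tumors, and the adjusted p from limma was 0.0195 (exact sign-flip p = 0.0234). The adjusted p was 0.051 without tumor 3 and 0.0993 with best-matching arrays as a block.

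The IgE receptor was read through its ligand-binding alpha chain, Fcer1a, and its signal-amplifying beta chain, Ms4a2. The Fcer1a probe (A_51_P429770, chr1:173194818-173194877 of mm7) gave -0.41, 0.00, 1.26, 0.22, -0.44, 0.10, 0.21 and 0.22 on the first arrays and -0.05, 1.17, -0.06 and 0.12 on the swapped arrays. The first array of tumor 3 and the swapped array labelled tumor 2 were the only ones beyond 2-fold. The tumor RNA was not well above background at this probe on the first arrays of tumors 1 and 6. The mean was 0.15 ± 0.36 (SD, n = 8; exact sign-flip p = 0.266; limma adjusted p = 0.461).

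The Ms4a2 probe (A_51_P234975, chr19:11297411-11297470 of mm7) behaved differently from the others. It gave 0.17, 0.25, 0.39, 0.28, 1.29, 0.15 and 0.18 for tumors 2 to 8 on first arrays and 0.01, 0.13, -0.16 and -0.18 on the swapped arrays. Tumor 6 was more than 2-fold above the pool, and both arrays on which the other mast cell genes were highest were at 0.25 and 0.13. The spot of the first array of tumor 1 carried an outlier flag; its value was 2.05. All 8 tumor means were above the pool, the lowest at 0.01, which 4.48% of all probes measured in the 8 tumors shared. The exact sign-flip p was 0.00781, the smallest that 8 tumors allow, yet the mean was 0.28 ± 0.42 (SD) and the limma adjusted p 0.237, so it was not called.

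Gata2 encodes the zinc finger factor that mast cells need for their development and identity, and that blood progenitors and endothelium also make. Its probes (A_51_P516625 at chr6:88281934-88281993 and A_52_P233441 at chr6:88281461-88281520 of mm7) reached the highest single ratios of the 11. The former gave 0.14, 4.82, 0.08, -0.13, 1.85, 1.07 and -0.39 for tumors 2 to 8 on first arrays, with the spot of tumor 1 left out as an outlier at 0.33, and -0.01, 3.52, 0.08 and -0.30 on the swapped arrays. The latter gave -0.05, 0.11, 4.38, 0.33, -0.15, 0.23, 0.66 and -0.05 on the first arrays and 0.07, 3.02, 0.12 and -0.07 on the swapped arrays. The first array of tumor 3 was 28.2-fold and 20.9-fold above the pool, and every other first array except that of tumor 6 at the former probe and that of tumor 7 lay within 0.39 of the pool. The probes differed by 1.62 on tumor 6 and by at most 0.51 elsewhere. The means were 0.82 ± 1.11 and 0.58 ± 0.87 (SD, n = 8), with exact sign-flip p of 0.125 and 0.0859 and limma adjusted p of 0.141 and 0.186. They rested on 2 arrays: without the first array of tumor 3 and the swapped array labelled tumor 2 the means were 0.31 and 0.13.

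Counted by array, the mast cell probes split the tumors more sharply than the means do. On the first array of tumor 3, 10 of 11 were at least 2-fold above the pool, where 11.8% of all measured probes were; Ms4a2, at 1.19-fold, was the exception. On the swapped array labelled tumor 2 the same count was 10 of 11, against 13.2% of all probes. The first array of tumor 7 had 8 of 11, against 7.35%, and that of tumor 6 had 6 of 11, against 12.2%. Tumor 4 and tumor 8 had 1 of 11 each (background 4.81% and 7.25%), as had the swapped array labelled tumor 4 (7.49%). None was 2-fold above the pool on the first arrays of tumors 1, 2 and 5 (5.02%, 3.41% and 4.01% of all probes) or on the swapped arrays labelled tumors 1 and 3 (3.7% and 5.43%). In the other direction 3 of the 9 measured probes were at least 2-fold below the pool on the first array of tumor 1, those of Cpa3 and Cma1. They stood at percentiles 2.54, 8.42 and 10.7 of all probes there, so at least 10.7% of all probes were also 2-fold below. On the array of tumor 6, 1 of 11 was 2-fold below, Cma1 A_51_P514029, at percentile 25.3 of all probes. No p is given for these counts, since the probes of an array share its RNA.

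**Figure D2:**
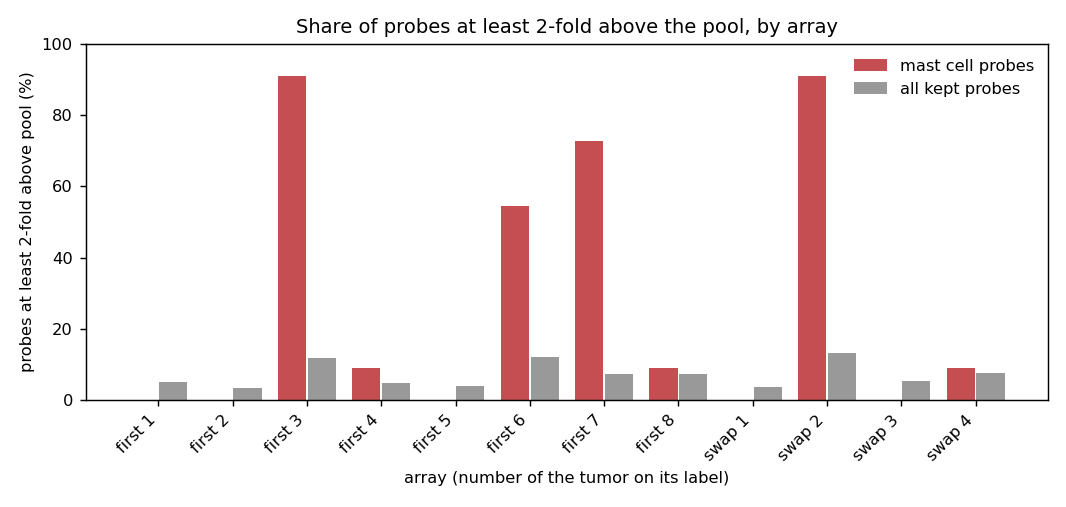
Share of probes at least 2-fold above the pool (percent, vertical axis) on each array (horizontal axis, with the tumor number on its label), for the 11 mast cell probes in red and all kept probes in grey. The red bars stand at 10 of 11 on the first array of tumor 3 and the swapped array labelled tumor 2, at 8 of 11 in tumor 7 and at 6 of 11 in tumor 6, and the grey bars lie between 3.41% and 13.2%.

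The mast cell probes alone did not single out these pairs in every case. The median absolute difference of the mast cell probes between the swapped array labelled tumor 2 and the first array of tumor 3 was 0.77, and against the first array of tumor 2 it was 1.4. That of tumor 7 was nearer still, at 0.683. For the swapped array labelled tumor 3 the median difference was 0.24 from the first array of tumor 4 and 2.24 from that of tumor 3, while tumor 2 was nearest at 0.136. For the swapped array labelled tumor 4 it was 0.094 from tumor 8, the nearest, and 0.741 from tumor 4. The swapped array of tumor 1 matched its own number best over all probes. Its mast cell probes were yet nearer to tumors 8 (0.251) and 5 (0.282) than to their own number (0.417). Cpa3 was at -1.79 on the first array and at -0.23 on the swapped array. This mismatch depends on the processing. In the authors' value table Cpa3 was at -1.82 on the first array and -0.98 on the swapped array. The Mcpt4 probes were both at -0.63 there on the first array, and at -0.80 and -0.75 on the swapped array. Distances between arrays were not measured with that table. Leaving out the first array of tumor 3 and the swapped array labelled tumor 2 together kept 10 of 11 means above the pool and 1 call, that of Tpsb2 (mean 0.46, limma adjusted p = 0.0499), where 3.83% of all probes were called higher. This omission was chosen after the data were seen. It left Hdc at 0.64 (limma adjusted p = 0.0736), the Mcpt4 probes at 0.50 and 0.54, Ms4a2 at 0.25 and Fcer1a at 0.00.

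**Figure D3:**
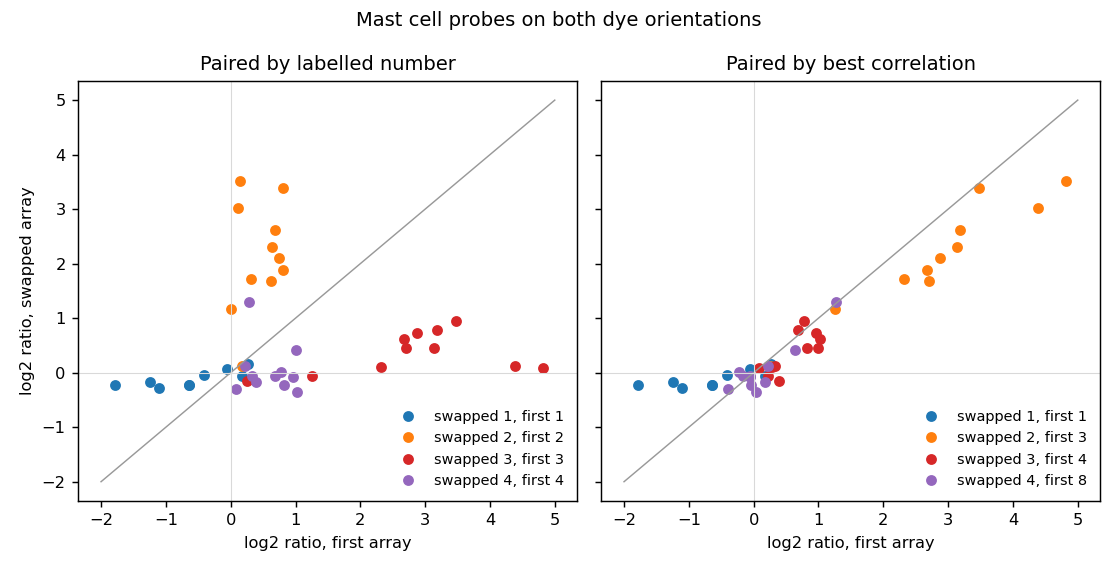
Log2 ratio of each mast cell probe on a first array (horizontal axis) and on a swapped array (vertical axis), with arrays paired by the tumor number on their labels (left) and by their best correlation over all probes (right). The grey line marks equal ratios. Paired by number, the swapped arrays labelled tumors 2 and 3 lie far from the line, with median differences of 1.4 and 2.24. Paired by correlation they lie nearer to it, with median differences of 0.77 and 0.24.

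Since Gata2 is among the 8 genes, the motif of GATA factors was looked for near the starts of all of them. In windows from 250 bases before to 50 after a RefSeq start (GRCm38.p6), the GATA motif, written as AGATAA or as its variants on either strand (the form AGATAG is counted as well, then the form TGATAA as well and likewise the form TGATAG), was found in 6 of the 7 genes that the promoter table holds, and in 29.8% of all 32851 windows of 300 bases. Gata2 itself, with 2 starts, had none, and Tpsb2 was not matched. An E-box, CANNTG, was found in 5 of 7 genes and in 72.3% of all windows. The 250 bases before the start are shown for the 3 proteases whose arrays ran closest together and for Ms4a2, whose arrays did not follow them, with the GATA motif in capitals.
Cpa3 (chr3:20242182-20242431, minus strand): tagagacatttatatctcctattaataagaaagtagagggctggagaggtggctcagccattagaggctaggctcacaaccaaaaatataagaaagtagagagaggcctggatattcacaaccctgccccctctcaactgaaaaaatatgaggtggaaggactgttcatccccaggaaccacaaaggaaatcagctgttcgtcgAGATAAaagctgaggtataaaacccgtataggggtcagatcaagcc
Cma1 (chr14:55944676-55944925, minus strand): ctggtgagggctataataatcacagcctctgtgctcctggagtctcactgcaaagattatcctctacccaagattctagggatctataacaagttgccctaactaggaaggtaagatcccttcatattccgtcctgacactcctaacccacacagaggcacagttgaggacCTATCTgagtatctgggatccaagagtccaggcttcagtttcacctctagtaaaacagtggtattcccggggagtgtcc
Mcpt4 (chr14:56062311-56062560, minus strand): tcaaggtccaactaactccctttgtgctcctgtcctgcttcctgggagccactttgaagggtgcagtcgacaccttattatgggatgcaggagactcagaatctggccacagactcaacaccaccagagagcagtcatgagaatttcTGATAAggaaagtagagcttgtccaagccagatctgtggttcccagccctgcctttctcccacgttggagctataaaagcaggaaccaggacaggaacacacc
Ms4a2 (chr19:11623720-11623969, minus strand): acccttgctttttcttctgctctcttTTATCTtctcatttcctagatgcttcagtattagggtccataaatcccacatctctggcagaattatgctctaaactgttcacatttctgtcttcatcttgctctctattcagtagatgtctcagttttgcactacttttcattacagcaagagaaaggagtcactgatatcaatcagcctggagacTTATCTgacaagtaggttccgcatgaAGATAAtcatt
The match began at -46 from the start of Cpa3, at -79 in Cma1 and at -103 in Mcpt4, and Ms4a2 held 3 matches, at -224, -37 and -11. At least 2 matches were held by 7.77% of all windows. The matches are letters in a window and do not show that a factor binds there.

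Likeness to Cpa3 was measured as the root mean square difference of log2 ratios over arrays, in which 0 means the same ratio on every array. The Cma1 probe A_51_P514035 differed from Cpa3 by 0.44 over 11 arrays, Gata2 A_51_P516625 by 0.65 over 11, Gata2 A_52_P233441 by 0.94 over 12, Cma1 A_51_P514029 by 1.02 over 11, and the Mcpt4 probes by 0.70 and 0.71 over 12. Hdc and Tpsb2, both at 1.10, and Fcer1a at 1.3 were less alike, and Ms4a2 was at 1.58. The array missing for Gata2 A_51_P516625 was the first of tumor 1, where Cpa3 was at -1.79 and the other Gata2 probe at -0.05. Its 0.65 is therefore not comparable with values over 12 arrays. The same holds for both Cma1 probes, which lack the first array of tumor 5. Cpa3 was at -0.73 there, and the flagged values of Cma1 A_51_P514029 and A_51_P514035 were 0.95 and 0.48. Ms4a2 also lacks the first array of tumor 1. Cma1 A_51_P514029 parted most from Cpa3 on tumor 6, at -1.09 against 2.11. Among 21325 probes of other named genes measured on all 12 arrays, the 5 nearest to Cpa3 were Lgi2 (0.32), Cfi (0.44), Antxr1 (0.51), Axin2 (0.53) and Ptprz1 (0.55). The Mcpt4 probes would rank at 33 and 43 in that order. Cfi encodes complement factor I, Axin2 is a feedback inhibitor of Wnt signalling, and Antxr1 is a cell surface receptor for collagen and anthrax toxin.

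Other mast cell genes were called about as often as all probes. Of 37 kept probes of other granule, mediator and receptor genes, limma called 2 higher and 3 lower, where 5.19% of all probes were called higher and 10.1% lower, and their median was 0.14. Serglycin, the core of the granule proteoglycan (Srgn), had a mean of 1.21 ± 1.05 (SD, n = 8; limma adjusted p = 0.0363) and reached 5.44 on the first array of tumor 3. Tph1, the enzyme of serotonin synthesis, had 0.83 ± 0.61 (adjusted p = 0.0237) at 1 probe and 0.34 at its other, which was not called. The lower calls were both Rab27a probes, for a GTPase of granule transport (-0.68, adjusted p = 0.0497, and -0.83, adjusted p = 0.0227), and 1 of the Mitf probes (-0.95, adjusted p = 0.0351), while the other Mitf probe was at -0.04. With best-matching arrays as a block, 0 were called higher and 1 lower.

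Tpsab1, the tryptase gene next to Tpsb2, had a mean of 0.68 ± 0.77 (SD, n = 8; limma adjusted p = 0.0965), with 1.97 on the first array of tumor 3. Kit, the receptor that keeps mast cells alive and that mammary epithelium also makes, had 0.13 ± 0.71 (adjusted p = 0.736). Kit was at -1.78 on the first array of tumor 3 and -2.23 on the swapped array labelled tumor 2, the arrays on which Cpa3 and Gata2 were highest. Il1rl1, the receptor of interleukin-33, was at 2.30 and 1.82 on those arrays at its probe A_52_P484194. Mrgprb2, a receptor of connective tissue mast cells, was at 1.47 and 1.52 there and at 1.03 in tumor 6. The mast cell proteases Mcpt1, Mcpt2 and Mcpt9 and the tryptase Tpsg1 were not kept: Mcpt2 and Mcpt9 were well above background on 0 of 12 arrays in the tumor RNA.

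Genes of IgE receptor signalling gave 2 higher calls among 33 kept probes and 0 lower (1 lower at an unadjusted limma p under 0.05), with a median of 0.19, where 5.19% of all probes were called higher. They were Lat2, an adaptor below the receptor (0.65 ± 0.48, SD, n = 8; limma adjusted p = 0.0279), and Pik3r5, a regulatory subunit of PI3-kinase gamma (0.78 ± 0.61, adjusted p = 0.0299). Neither was called with best-matching arrays as a block, with adjusted p of 0.103 and 0.0924. The gamma chain, Fcer1g, which macrophages share, had 0.31 and 0.18 at its probes and was not called.

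Kitl, the ligand of Kit and the growth factor of mast cells, was called lower in the tumors than in the pool, with sizes that differed between dye orientations. Its probe A_51_P133936 had a mean of -0.89 ± 0.19 (SD, n = 8; limma adjusted p = 0.00115) and A_52_P572571 of -1.52 ± 0.78 (adjusted p = 0.00554), both below the pool in 8 of 8 tumors, which 10.7% of all probes were. On the first array of tumor 3 the probes were at -0.63 and -1.0, on the swapped array labelled tumor 2 they were at 0.16 and -0.85, and in tumors 6 and 7 they were at -1.03 and -2.56 and at -0.85 and -2.95. With best-matching arrays as a block the adjusted p were 0.0504 and 0.0149, so the call of the former was lost. With median centring the means were -0.51 (adjusted p = 0.0496) and -1.44 (adjusted p = 0.0125). Csf2rb2, a beta chain of the interleukin-3 receptor, was higher (1.14 ± 0.63, adjusted p = 0.00821), in 8 of 8 tumors. Its neighbour Csf2rb was called higher at 1 of 3 probes (0.75 ± 0.57, adjusted p = 0.0276), and Stat5b, a factor below these receptors, was called lower at 1 of 3 probes (-1.06 ± 0.94, adjusted p = 0.0411), with the others at -0.09 and -0.08. The Stat5b call was lost with best-matching arrays as a block (adjusted p = 0.0608) and with median centring (0.0857). Over the 20 kept probes of growth factors, cytokines and their receptors 2 were called higher and 3 lower, the median was 0.15, and the probes of Il3, Il9 and Il13 were not kept.

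Markers of other cell types were read beside the mast cell probes, and their part in these results was not tested. Of the basophil list, which shares the IgE receptor and histamine with mast cells, 0 of 6 kept probes were called by limma and 0 had an unadjusted p under 0.05, its defining protease Mcpt8 was well above background on 0 of 12 arrays, and Prss34 had a mean of -0.02. Of 5 kept probes of the eosinophil list, the 4 of the ribonucleases Ear10, Ear1 and Ear6 were called higher and Ccr3, at 0.14, was not, with Ear10 at 1.35 ± 0.72 (SD, n = 7; adjusted p = 0.00962) and Ear1 at 1.12 ± 0.82, but the granule genes Prg2 and Epx were not kept. With best-matching arrays as a block 3 of the 4 were called, and 1 Ear6 probe had an adjusted p of 0.0717. Limma called 0 of 25 fibroblast probes, with 3 at an unadjusted p under 0.05, all higher, and 0 of 18 fat probes, with 1, which was lower. Of 22 endothelial probes 0 were called higher and 2 lower, with a median of -0.01.

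On single arrays some of these lists moved with the mast cell genes. On the first array of tumor 3 the median of the fibroblast list was 2.76, with 24 of 25 probes at least 2-fold above the pool, that of neutrophils 2.14 and that of macrophages 1.83, beside 2.88 for the mast cell probes. On the swapped array labelled tumor 2 the fibroblast median was 2.23 and the mast cell median 2.10. In tumor 7 the mast cell median was 1.07 and the fibroblast median 0.16, while T cell, B cell and fat lists were at 3.01, 3.13 and 1.68. In tumor 6 the mast cell median was 1.26, the fibroblast median 0.61 and the fat median -0.53.

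**Figure D4:**
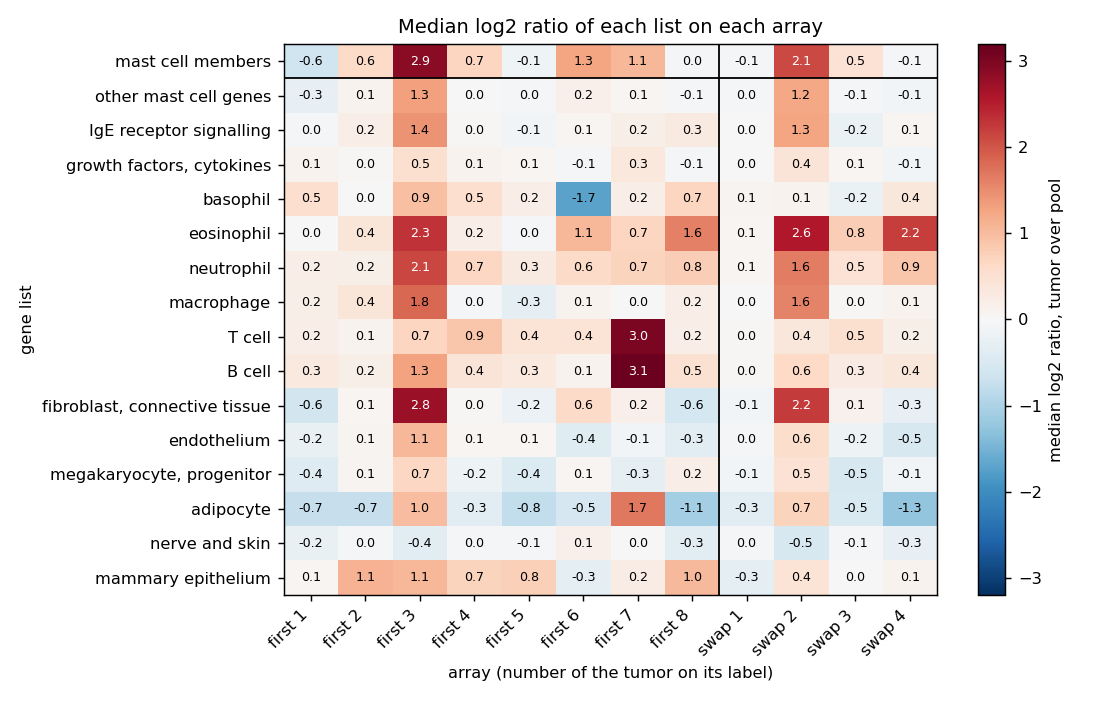
Median log2 ratio of tumor over pool (colour and number) of each gene list (rows) on each array (columns, first arrays 1 to 8 and swapped arrays labelled 1 to 4). The mast cell row is highest on the first array of tumor 3 (2.88) and the swapped array labelled tumor 2 (2.10), where the fibroblast, eosinophil, neutrophil and macrophage rows are also high, and in tumor 7 the T cell and B cell rows exceed it.

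The order of the genes by mean was Cma1 A_51_P514035, Hdc, Cpa3, Gata2 A_51_P516625, the Mcpt4 probes, Tpsb2, Gata2 A_52_P233441, Cma1 A_51_P514029, Ms4a2 and Fcer1a. Neighbours in this order lay within 0.22 of each other, less than the smallest SD of a probe over the tumors, 0.36. Slide means of Cpa3, Hdc and Tpsb2 were above the pool on all 3 slides. The slides held the first arrays of tumors 1 to 4, those of tumors 5 to 8, and the swapped arrays. In that order Cpa3 averaged 0.82, 0.73 and 1.03, Hdc 0.80, 0.92 and 0.82, and Tpsb2 1.13, 0.46 and 0.63. The Cpa3 mean of 0.82 includes the first array of tumor 3, at 3.47. That of 1.03 includes the swapped array labelled tumor 2, at 3.39. Ms4a2 averaged -0.05 on the swapped arrays, the only slide mean of a mast cell probe below the pool. With the first arrays alone, limma called 0 of 11 both without and with slide as a block, with 5 and 3 at an unadjusted p under 0.05, and 6.05% and 5.52% of all probes called higher. The authors' value table gave the same calls of Tpsb2 and Hdc, with 7.24% of all probes higher.

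**Figure D5:**
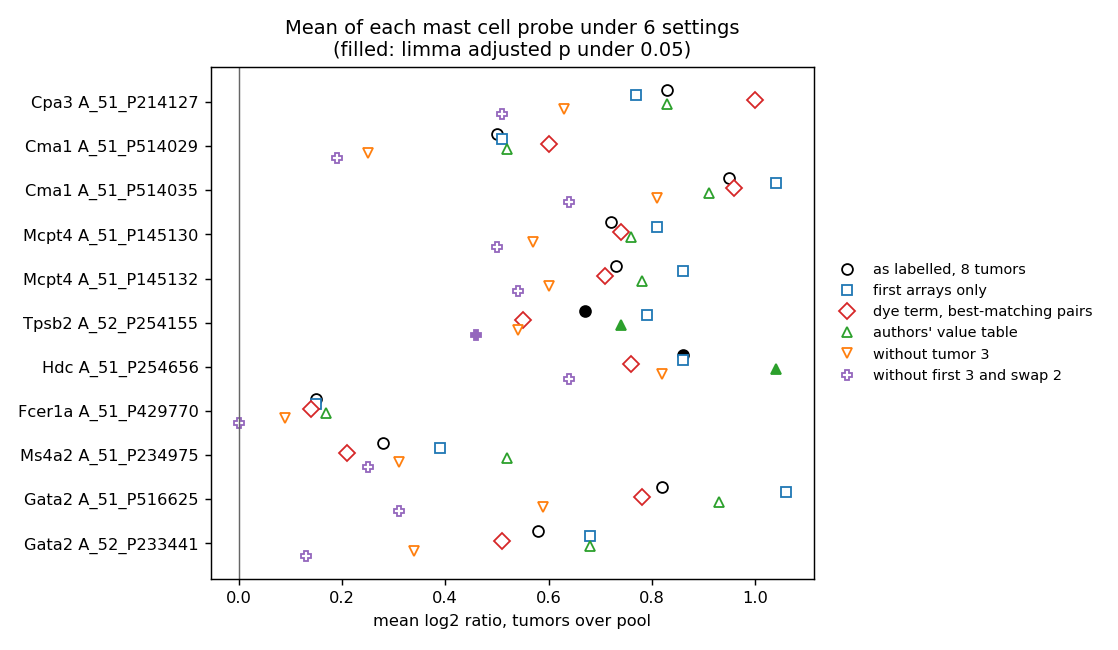
Mean log2 ratio of tumors over pool (horizontal axis) of each mast cell probe (rows) under 6 ways of processing; filled markers have a limma adjusted p under 0.05. The filled markers are those of Tpsb2 and Hdc as labelled and in the authors' value table, and of Tpsb2 without the first array of tumor 3 and the swapped array labelled tumor 2.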

How the data were processed

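RNA of 8 mouse mammary tumors and of a pooled reference was hybridised to 12 Agilent arrays. Total RNA came from a Qiagen column kit, per the labels' protocols. Per the file headers, spots were read with Agilent Feature Extraction 9.5.3.1 on a design with mm7 coordinates. The authors deposited mean foreground and median background intensity per spot, without normalization. The deposited log10 ratio is red over green after Feature Extraction's background and dye correction, per the file headers. Among other deposited columns, flags of 0 or 1 mark spots as well above background, saturated or outlying. A log2 value table of the authors was deposited too. Its slope against the scanner log ratio was 0.758 to 0.797 on first arrays and -0.748 to -0.715 on swapped arrays, so it is already turned to tumor over pool. Its column medians were 0, 0.00574, -0.0715, -0.00668, -0.0252, 0.137, 0.115 and 0.000792 for the first arrays and -0.0124, -0.0508, -0.00659 and -0.00298 for the swapped ones. Its normalization and centring stay unknown.

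Of the spots on an array, 43379 were for genes and 1639 were controls. Intensities were corrected by normexp (offset 50) and normalized by loess in limma 3.58.1 (R 4.3.3, data.table package 1.17.8, statmod 1.5.0), with control spots at weight 0. Outlier spots were left out (0.47% to 13.7% per array). Ratios were turned to tumor over pool, and averaged first over the spots of a probe and then over the arrays of a tumor (n = 8). A probe was kept if, in 4 or more tumors, an array showed the tumor or pool RNA well above background. Means were tested against 0 with limma, with Benjamini-Hochberg adjustment over 30796 tested probes at 0.05, and with an exact sign-flip permutation test. The number of arrays limits the precision. Symbols came from RefSeq (GRCm38.p6) for 22951 probes by accession, 6659 by symbol and 3109 by older symbol, and 8455 kept the file's name. The fit was tested on simulated data.

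The 8 genes and all marker lists were chosen with earlier results of these data known. Named from each list were the probes called and at most the 3 largest means among the rest, and for likeness the 5 nearest to Cpa3; 1 called probe is not reported here. Other genes named for an array on which mast cell genes were high or low were chosen after their values were seen. Alternatives covered the offset, scanner ratios, the deposited values, median centring, filters, outliers, first arrays only, dye and slide terms, 1 probe per gene and each tumor left out.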

Additional observations from a re-analysis of the deposited data

Results flagged for a closer look

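Ms4a2, the beta chain of the IgE receptor, stood out in tumor 6. Its log2 ratio there was 1.29, and the next highest of the 8 tumors was 0.28, a gap of 0.788 of the whole range. How often a gap of this size arises by chance was not tested, and 11 probes were examined. The gap depends on a spot left out for an outlier flag, that of the first array of tumor 1, which read 2.05. Tumor 6 had a single array, and its Ms4a2 spot was well above background in both RNAs. On that array probes of the same gene also differed, as for Cma1 at -1.09 and 2.11, so gene and probe cannot be told apart there.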

How the results depend on the processing

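Over 22 alternatives, 215 of 237 values of the mast cell probes kept their direction and their side of the threshold, 19 lost it, 2 gained it, and 1 changed sign. The last was Fcer1a, at 0.00 without the first array of tumor 3 and the swapped array labelled tumor 2, a choice made after seeing the data. The losses fell on Tpsb2 (11 of 22 alternatives, adjusted p 0.0242 to 0.245) and Hdc (8 of 22, 0.0102 to 0.0993). The count of mast cell probes called higher, 2 as reported, was 0 with first arrays only, with slide as a block, with best-matching pairs as a random block and with swapped arrays averaged with their best match (the last chosen after seeing the data). It was 1 with no filter on dim probes and 1 without the first array of tumor 3 and the swapped array labelled tumor 2. Leaving out each tumor gave 0 to 4: 0 without tumor 3, 4 or 8, and 4 without tumor 1, when Cma1 A_51_P514035 (adjusted p 0.0446) and Mcpt4 A_51_P145132 (0.0461) were added. All probes called numbered 4699 as reported, 1891 with best-matching pairs as a block, 2919 with best-match averaging, and 2430 to 6054 without each tumor, including 3084 without tumor 3 and 2789 without tumor 8. The cause was not tested. With tumor as a replicate block and a dye term, as labelled, 2 mast cell probes were called, and the correlation within a block was -0.0291, against 0.936 for best-matching pairs. Median centring left both calls. Fcer1a is limited by signal: its tumor RNA was well above background on 10 of 12 arrays.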

Other observations

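Markers of blood progenitors and platelets, which also make Gata2, were read on the same arrays. Of their 13 kept probes, 1 was called higher and 2 lower by limma, with a median of -0.01. Nfe2, a factor of platelet formation that mast cells also make, had a mean of 1.00 ± 0.77 (SD, n = 8; adjusted p = 0.0258). Both probes of Meis1, a progenitor homeobox gene, were lower, at -0.81 ± 0.35 (adjusted p = 0.00531) and -0.90 ± 0.55 (adjusted p = 0.0135). With best-matching pairs as a block none of the 3 was called, at adjusted p of 0.0643, 0.163 and 0.208.

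Endothelium also makes Gata2. Flt1, a receptor of vascular endothelial growth factor, was called lower by limma at 2 of its 4 kept probes, at -1.34 ± 0.63 (SD, n = 8; adjusted p = 0.00459) and -0.60 ± 0.49 (adjusted p = 0.0404), and the others were at 0.10 and -0.01. The former call was kept with best-matching pairs as a block and with median centring (adjusted p = 0.0142 and 0.0103), and the latter was lost (0.122 and 0.189).

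The remaining marker lists gave the following calls by limma. Of 16 neutrophil probes 6 were higher and 0 lower (15 higher and 0 lower at an unadjusted p under 0.05), those of Ltf, Il1b, S100a8, Fpr2 and Retnlg, with Il1b at 1.44 ± 0.73 (SD, n = 8; adjusted p = 0.0055). Of 21 macrophage probes 3 were higher, for C1qc, Msr1 and Fcgr1. Among 19 T cell probes Lck was higher, at 1.51 ± 0.92 (adjusted p = 0.00976), and 1 Cd3e probe measured in 4 tumors was lower, and among 8 B cell probes both of Cd72 were higher. Among 16 epithelial probes 1 of Krt7 and both of Krt8 were higher and 1 of Esr1 lower, and none of these calls was kept with best-matching pairs as a block and a dye term. Both Krt8 probes were above the pool on all 8 first arrays and below it on all 4 swapped arrays. With that block 3 neutrophil calls, 1 macrophage call, 1 T cell call (higher) and 1 B cell call were made. It also called 1 epithelial probe higher, that of Cdh1 (mean 0.70, limma adjusted p = 0.0118). As labelled, Cdh1 was not called (mean 0.43, limma adjusted p = 0.0986). Among 16 skin and nerve probes the basal keratins Krt5 and Krt14 were higher, the glial gene S100b and 1 probe of Mbp were lower, and with the block 0 were called. The other Mbp probes, at -0.19 and -0.20, were not called. With median centring the calls of S100b (adjusted p = 0.132) and Mbp (0.944) were lost. On the 2 arrays where mast cell genes were highest, the skin and nerve medians were -0.37 and -0.51.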
